A study of Arabidopsis thaliana with 6 samples.

Results

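*ASN1*, *DIN1* and *DIN10* belong to the *DARK INDUCIBLE* (*DIN*) genes of *Arabidopsis thaliana*, whose transcripts accumulate when leaves are kept in the dark or run short of sugar. The members are *ASN1* (AT3G47340, also named *DIN6*), *DIN1* (AT4G35770, also named *SEN1*) and *DIN10* (AT5G20250), each read from 1 probe set of the ATH1 array. They make up 3 of the 22810 probe sets on the array, of which all but 64 controls were tested. None of these probe sets has the suffix that marks probes shared between transcripts. All 3 were named through a supplementary table of the study that is sorted by the size of the difference between the genotypes. That *ASN1*, *DIN1* and *DIN10* differ in their mean is therefore how they came to be named and is not independent evidence of a direction.

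The *gis5* mutants carry a point mutation in *POLD1*, which encodes the catalytic subunit of polymerase δ, a replicative DNA polymerase. They came from a chemical mutagenesis of the late flowering *gi-2* mutant, were backcrossed to WT 4 times and are compared here as 1 mutant line with WT plants of the Columbia accession. RNA was taken from whole seedlings, leaves and roots together, at 10 days of age. All seedlings grew on MS salts plates in continuous light, at 24°C by the methods and 23°C by the description of the series. There were 3 biological replicates of *gis5* and 3 of WT, with 1 array each. Nothing in the descriptions says whether replicates came from separate sowings, so the spread between arrays may be partly technical. Because RNA came from whole seedlings, a lower transcript level per cell and fewer cells that hold the transcript cannot be told apart.

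Plants that run short of sugar switch from growth to the use of stored reserves and amino acids. The kinase SnRK1, the plant relative of yeast Snf1 and animal AMPK, is activated by low energy and acts in part through bZIP transcription factors of the S1 and C groups. *ASN1*, a glutamine-dependent asparagine synthetase gene that is repressed by light and by sucrose, is one of the transcripts most often read as a marker of this state. Asparagine carries much nitrogen per carbon, so it is the form in which nitrogen is stored and moved when carbon is short. *DIN1* encodes a small protein with a rhodanese (sulfurtransferase) domain and is also a marker of senescing leaves. *DIN10* encodes a protein of the raffinose synthase and alkaline alpha-galactosidase family.

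The signal is the linear MAS5 intensity of a probe set, in arbitrary units, with each array scaled to the same trimmed mean, so levels are compared between arrays and not between genes. *ASN1* read 204, 400 and 43.8 on *gis5* arrays 1, 2 and 3, against 488, 396 and 717 on WT arrays 1, 2 and 3. The *gis5* arrays 1 and 3 lay below every WT array, and *gis5* replicate 2 lay just above the lowest WT array, so that the genotypes overlapped. *DIN1* read 1589, 3306 and 1000 in *gis5*, against 4124, 3893 and 4666 in WT. Every *gis5* array of *DIN1* was below every WT array, with *gis5* replicate 2 again the highest of the mutants. *DIN10* read 5182, 8072 and 4072 in *gis5*, against 8970, 7655 and 9329 in WT. As with *ASN1*, *gis5* replicate 2 of *DIN10* lay inside the range of WT and the other *gis5* arrays lay below it. A complete separation with *gis5* below WT, as seen for 1 of the 3 genes, was seen for 6.79% of all probe sets.

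**Figure D1:**
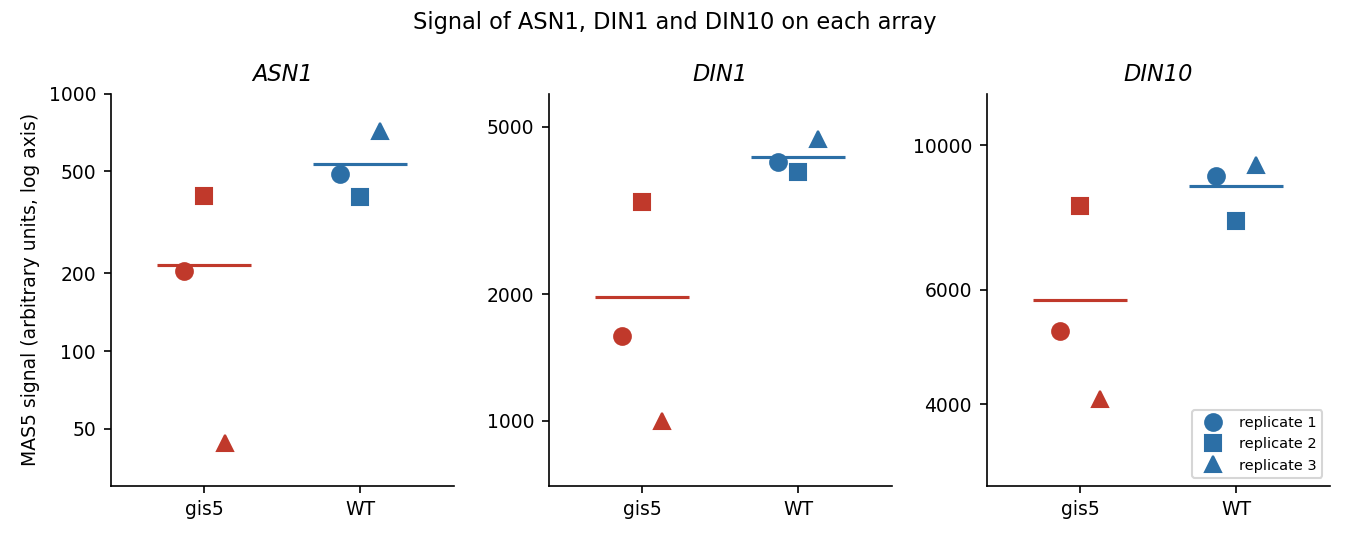
MAS5 signal of *ASN1*, *DIN1* and *DIN10* (vertical log axes, 1 scale per gene) on the 3 *gis5* arrays (red) and the 3 WT arrays (blue). Marker shapes give the replicate number and horizontal lines the mean. In each gene *gis5* replicate 3 is lowest and *gis5* replicate 2 is highest of the mutant arrays, and the WT arrays lie closer together.

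Means and ratios followed from these values. *ASN1* averaged 216 ± 179 in *gis5* and 534 ± 165 in WT (SD, n = 3 each), *DIN1* 1965 ± 1198 in *gis5* and 4228 ± 397 in WT, and *DIN10* 5775 ± 2064 in *gis5* and 8651 ± 882 in WT. Tested with limma on log2(signal + 16), *ASN1* had a log2 ratio of *gis5* to WT of -1.60 (standard error, SE, 0.68, 95% interval -3.21 to 0.01), or 3.03-fold lower in *gis5*. This fold and those that follow compare averages on that log2 scale, with the 16 included, and not the means of the signals given above. *DIN1* had a log2 ratio of -1.27 (SE 0.41, 95% interval -2.25 to -0.29), 2.41-fold lower, and *DIN10* one of -0.64 (SE 0.27, 95% interval -1.27 to 0.00), 1.55-fold lower. No member passed an adjusted p of 0.05 over all probe sets (adjusted p from limma 0.55 for *ASN1*, 0.45 for *DIN1* and 0.55 for *DIN10*), a threshold passed by 0.0044% of probe sets, that is by 1 of them.

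Without adjustment, *DIN1* had a p of 0.0185 in limma, *ASN1* one of 0.0513 and *DIN10* one of 0.0509. A lower signal in *gis5* at an unadjusted p under 0.05 was found for 1 of the 3 members and for 3.06% of all probe sets, while 5.99% were higher at the same p. *DIN1* also met the thresholds of the study's methods (p under 0.05 without adjustment, with a log2 ratio of 1 or more in size). They were applied here to limma on MAS5 signals, whereas the study worked on values from robust multi-chip average (RMA). Here 0.541% of probe sets met them with a lower and 1.38% with a higher signal in *gis5*. The two-sided exact permutation test over arrays gave p = 0.1 for *DIN1*, the smallest value that 3 against 3 arrays allow, and p = 0.2 for both *ASN1* and *DIN10*. Ordered by log2 ratio, lowest first, *ASN1* stood at place 7, *DIN1* at 48 and *DIN10* at 713 among all that were tested. Within the 11373 probe sets with a mean signal above the median, where a ratio is less affected by the constant added before the log, these places were 2, 6 and 67. Such places carry the selection described above and are given as a description.

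A large part of each difference rested on single arrays. Without *gis5* replicate 3 the log2 ratio of *ASN1* was -0.82, that of *DIN1* -0.87 and that of *DIN10* -0.41. Without *gis5* replicate 2 they were -2.22, -1.73 and -0.91. Set against the WT mean, the signal of *ASN1* was 38.2%, 75.0% and 8.20% on *gis5* arrays 1, 2 and 3, that of *DIN1* 37.6%, 78.2% and 23.7%, and that of *DIN10* 59.9%, 93.3% and 47.1%.

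The members also spread widely between the *gis5* arrays. The highest *gis5* signal of *ASN1* was 9.14 times the lowest, while in WT this quotient was 1.81. For *DIN1* it was 3.31 in *gis5* and 1.20 in WT, and for *DIN10* 1.98 in *gis5* and 1.22 in WT. On the log2 scale the SD of *ASN1* between *gis5* arrays was 1.43, the largest of the 11373 brighter probe sets. That place depends on the constant of 16 added before the log. The *ASN1* reading on *gis5* replicate 3, 43.8, was dim against the median signal of that array, 185. *DIN1*, with 0.86, stood at place 12 and *DIN10*, with 0.50, at place 176, against a median of 0.16 over the brighter probe sets. Between WT arrays the SDs were 0.42 for *ASN1*, 0.13 for *DIN1* and 0.15 for *DIN10*, against a median of 0.18. Thus *DIN1* and *DIN10* varied less than a typical brighter probe set in WT, and *ASN1* more (94.4% of them had a smaller SD in WT). The difference in spread between the genotypes was not tested.

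**Figure D2:**
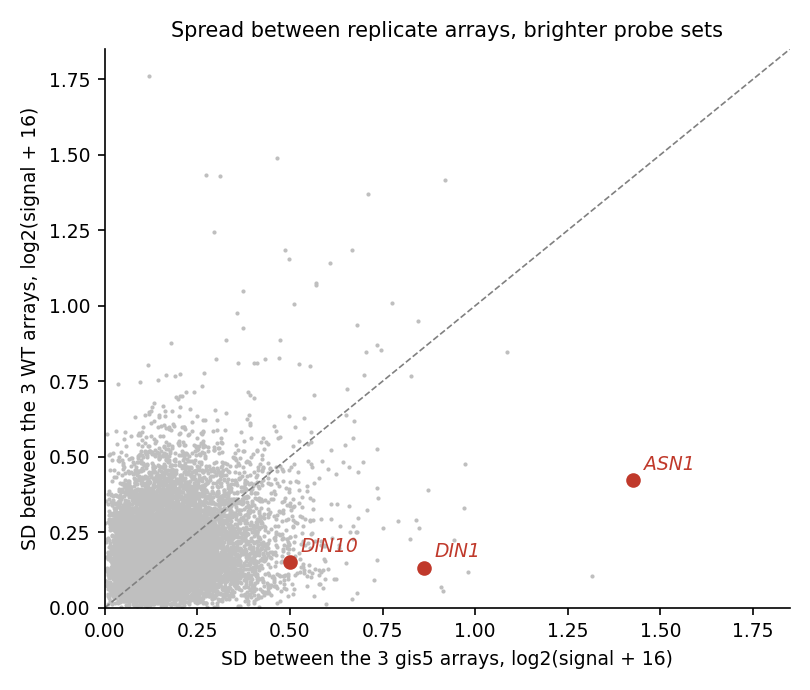
Standard deviation of log2(signal + 16) between the 3 *gis5* arrays (horizontal) and between the 3 WT arrays (vertical) for the 11373 brighter probe sets (grey), with *ASN1*, *DIN1* and *DIN10* in red and a dashed line of equal spread. *ASN1* lies farthest to the right, at 1.43 in *gis5* and 0.42 in WT.

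The members went up and down together from array to array. In *gis5* all 3 were highest on replicate 2, intermediate on replicate 1 and lowest on replicate 3, an order shown by 15.6% of all probe sets. In WT all 3 were highest on replicate 3 and lowest on replicate 2, although the WT values of *DIN1* and *DIN10* differed little. Over the 6 arrays Pearson's r was 0.962 between *ASN1* and *DIN1* (exact permutation p = 0.00278), 0.962 between *ASN1* and *DIN10* (exact permutation p = 0.00139, the smallest that 6 arrays allow) and 0.989 between *DIN1* and *DIN10* (exact permutation p = 0.00556). Adjusted over these 3 pairs, the exact permutation p-values were 0.00417, 0.00417 and 0.00556. Spearman's rho was 0.943, 1 and 0.943 (exact permutation p = 0.0167, 0.00278 and 0.0167, adjusted 0.0167, 0.00833 and 0.0167).

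The permutations behind these p-values moved arrays freely between the genotypes, so they do not test whether the members vary together within a genotype. Both the coefficients and their p-values include the difference between the genotypes, on which the members were named. Taken on deviations from the mean of each genotype, which leave that difference out, r was 0.941 for *ASN1* with *DIN1*, 0.929 for *ASN1* with *DIN10* and 0.983 for *DIN1* with *DIN10*, as a description. When the 2 arrays farthest from the median of the first gene were left out, in each pair *gis5* replicates 1 and 3, r over the other 4 arrays was 0.861, 0.889 and 0.727. The size of the swing fell from *ASN1* to *DIN1* to *DIN10*: for each unit of log2 signal in *ASN1*, the fitted line moved by 0.66 in *DIN1* and by 0.36 in *DIN10*.

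**Figure D3:**
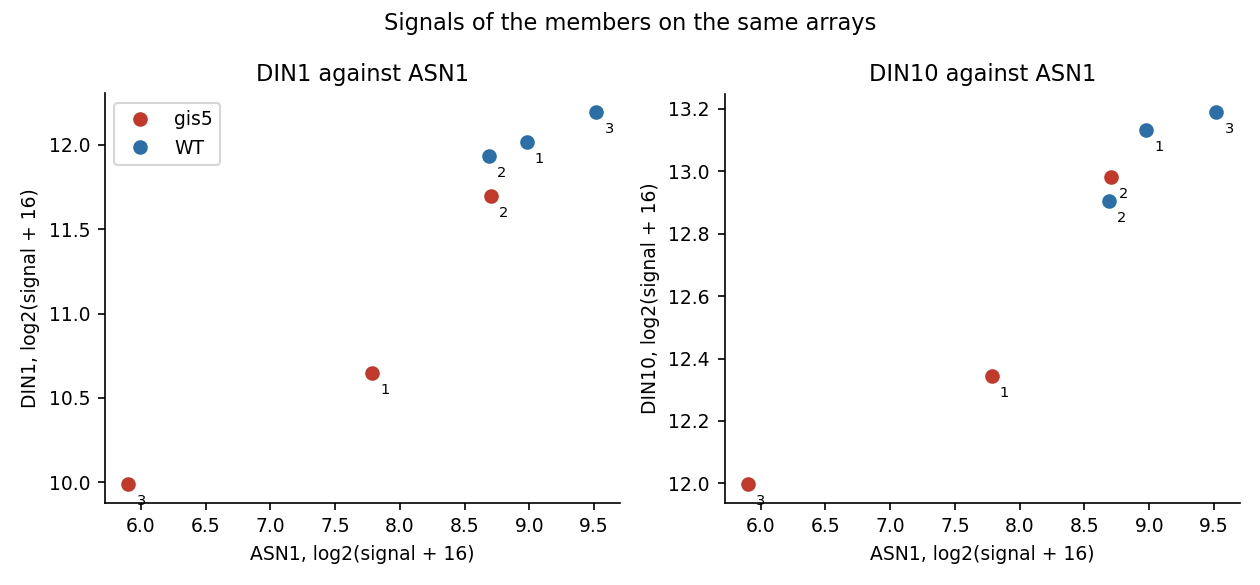
log2(signal + 16) of *DIN1* (left) and *DIN10* (right) against that of *ASN1* on the same array, for *gis5* (red) and WT (blue), with the replicate number beside each point. The points lie close to a rising line, with *gis5* replicates 3 and 1 at its lower end and *gis5* replicate 2 next to WT replicate 2.

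Of the 8 *DIN* genes listed, 5 had a named probe set, and *DIN2*, *DIN3* and *DIN4* were not analysed here. *DIN11* (AT3G49620), a gene for a 2-oxoglutarate-dependent dioxygenase, read 34.3, 54.0 and 16.5 in *gis5*, against 76.2, 86.2 and 108 in WT. Every *gis5* array of *DIN11* was below every WT array, as for 6.79% of all probe sets, and the *gis5* arrays had the same order as in the 3 members. Its log2 ratio was -1.12 (SE 0.30, adjusted p = 0.35), from dim signals, and was -0.65 with 64 in place of 16 added before the log. *DIN9* (AT1G67070), a phosphomannose isomerase gene, read 153, 227 and 180 in *gis5* and 160, 220 and 213 in WT. With a log2 ratio of -0.08 (SE 0.21, adjusted p = 0.93) *DIN9* did not separate the genotypes, and its sign turned without *gis5* replicate 1 (0.04). The median log2 ratio of the 5 *DIN* genes was -1.12, against 0.03 over all probe sets, 2 of the 5 were lower at an unadjusted p under 0.05, as were 3.06% of all probe sets, and all 5 were named through the sorted table.

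Other transcripts known to rise with carbon starvation or SnRK1 activity were taken as a list of 18 genes, of which 9 had a named probe set, 7 of them through the sorted table. All 9 had a negative log2 ratio, as did 46.4% of all probe sets, and the median was -0.52. Of these, 4 were lower at an unadjusted p under 0.05 (3.06% of all probe sets) and none was higher (5.99% of all probe sets), and none passed after adjustment. The sugar transporter gene *SWEET4* (AT3G28007), one of the 2 genes here named by the array annotation, read 2.5, 34.4 and 4.2 in *gis5*, against 105, 48.5 and 47.5 in WT. These are dim signals, and the log2 ratio of -1.57 (SE 0.45, adjusted p = 0.40) was -0.75 with 64 added and -2.87 with 1 added before the log. *BT2* (AT3G48360), which encodes a BTB-domain protein that responds to sugar and nitrogen, read 2274, 3011 and 1880 in *gis5*, against 3988, 3697 and 3587 in WT. Its genotypes did not overlap, with *gis5* lower, as for 6.79% of all probe sets, at a log2 ratio of -0.68 (SE 0.20, adjusted p = 0.43).

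The dormancy-associated genes *DRM1* (AT1G28330) and *DRM2* (AT2G33830) had log2 ratios of -0.56 and -0.53 (adjusted p = 0.54 for both). Again every *gis5* array was below every WT array, as for 6.79% of all probe sets. The other 5 were the hexose transporter gene *STP1* at -0.52, *SEN5* at -0.38, the class II trehalose-phosphate synthase genes *TPS8* and *TPS11* at -0.34 and -0.29, and the F-box gene *KMD1* at -0.27. None of these 5 had an unadjusted p under 0.05 in limma. *SEN5* (AT3G15450), the other gene named by the annotation, read 3829, 7422 and 3721 in *gis5* and 7911, 5073 and 5799 in WT, so that *gis5* replicate 2 was close to the highest WT array. The count of 4 was 2 without *gis5* replicate 1, without *gis5* replicate 3 or without WT replicate 1, and 6 without *gis5* replicate 2. It was also 2 with quantile normalization, a pseudocount of 1 or array weights, and between 3 and 5 in the other alternatives.

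The order of the *gis5* arrays seen in the members was found in 7 of these 9 genes, and in 15.6% of all probe sets. The exceptions were *TPS11* and *SWEET4*, in which replicate 2 was also the highest. The median of the 9 genes, relative to the WT mean on the log2 scale, was -0.54, -0.11 and -0.82 on *gis5* arrays 1, 2 and 3, and between -0.17 and 0.26 on the WT arrays. The same median over the 5 *DIN* genes was -1.07, -0.35 and -1.69 on the *gis5* arrays and between -0.11 and 0.15 on the WT arrays. In both lists *gis5* replicate 2 was the mutant array closest to the WT level. Over all probe sets this median stayed between 0.01 and 0.03 on the *gis5* arrays. Of the 176 brighter probe sets with a *gis5* SD at least that of *DIN10*, 36 (20.5%) had the order of the members. The most frequent order among them was replicate 2 over 3 over 1 (57, 32.4%).

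**Figure D4:**
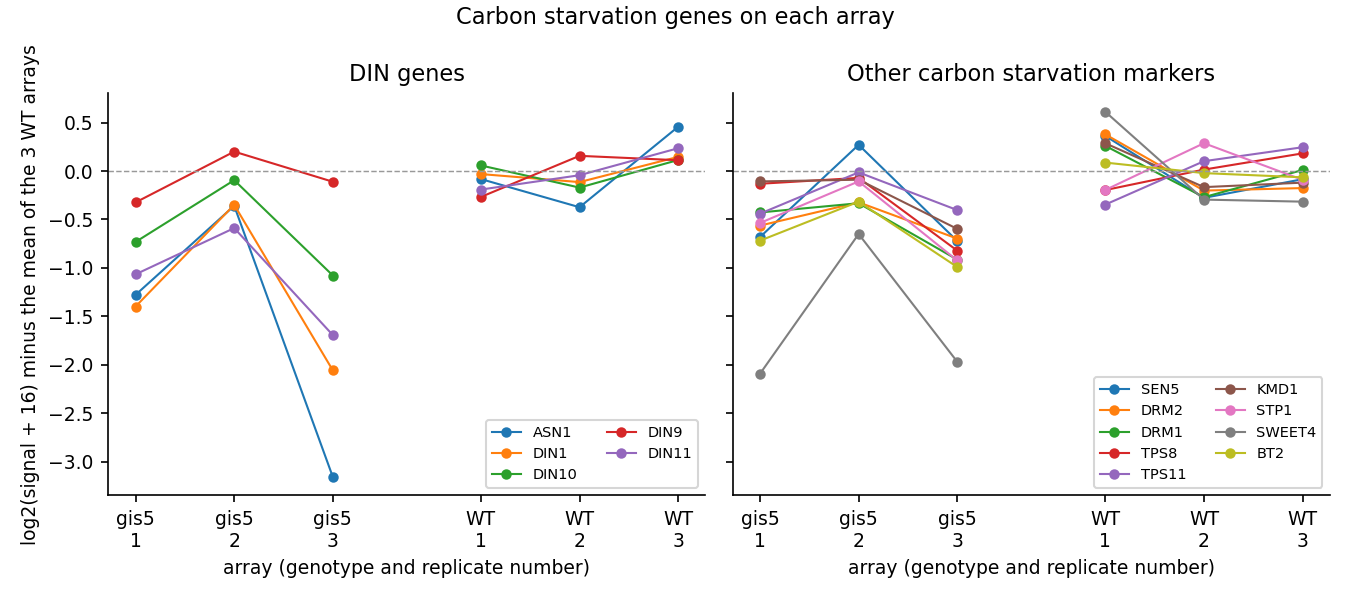
log2(signal + 16) minus the mean of the 3 WT arrays (vertical) for the 5 measured *DIN* genes (left) and the 9 other measured carbon starvation genes (right) on each array. Lines join the arrays of 1 gene within a genotype and carry no order in time. Replicate 2 is the highest *gis5* array in every gene shown, and *ASN1* reaches the lowest value, on *gis5* replicate 3.

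Asparagine is made from glutamine and aspartate, and the genes around *ASN1* in nitrogen assimilation were measured in part, 7 of 18. Their median log2 ratio was 0.38, with 3 negative and 4 positive, where 46.4% of all probe sets were negative. At an unadjusted p under 0.05 in limma, 2 were lower (3.06% of all probe sets) and 1 higher (5.99% of all probe sets). The second asparagine synthetase gene *ASN2* (AT5G65010), which unlike *ASN1* is known as a light-induced gene, read 1960, 2529 and 2000 in *gis5*, against 2819, 3123 and 3523 in WT. Every *gis5* array of *ASN2* was below every WT array, as for 6.79% of all probe sets, at a log2 ratio of -0.55 (SE 0.18, adjusted p = 0.45). *ASN3* was not analysed here. *NIA1* (AT1G77760), one of the nitrate reductase genes, likewise did not overlap, with 4964, 4761 and 4158 in *gis5* and 5705, 7425 and 8217 in WT, with a ratio of -0.61 on the log2 scale (adjusted p = 0.44). On the other side, *GLN1;1* (AT5G37600), for cytosolic glutamine synthetase, read 3127, 2316 and 3421 in *gis5*, against 2185, 1559 and 1536 in WT, and its log2 ratio was positive, 0.74 (adjusted p = 0.43). *GLU2*, a ferredoxin-dependent glutamate synthase gene, had 0.45 (adjusted p = 0.56). The *gis5* arrays of both *GLN1;1* and *GLU2* were above every WT array, as for 9.13% of all probe sets. In *GLN1;1* the *gis5* order was opposite to that of the members, and r with *ASN1* over the 6 arrays was -0.83. The asparaginase genes *ASPGA1* and *ASPGB1* had log2 ratios of -0.13 and 0.38, with overlapping genotypes.

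Genes for the use of branched-chain amino acids, proline and lysine as fuel, which are also induced when sugar runs out, were measured for 10 of 15. Of these, 6 had a negative log2 ratio, as did 46.4% of all probe sets, and 4 a positive one (median -0.07). At an unadjusted p under 0.05 in limma, 0 were lower (3.06% of all probe sets) and 2 higher (5.99% of all probe sets). The branched-chain aminotransferase gene *BCAT2* and *IVD*, for isovaleryl-CoA dehydrogenase, had -0.49 (adjusted p = 0.62) and -0.41 (adjusted p = 0.64). The proline dehydrogenase genes had positive ratios. *PRODH1* (AT3G30775) read 1625, 1411 and 1068 in *gis5*, against 814, 1034 and 829 in WT, which gave 0.60 on the log2 scale (adjusted p = 0.47). *PRODH2* (AT5G38710) read 123, 147 and 125 in *gis5*, against 73.9, 82.0 and 74.8 in WT, which gave 0.67 on the log2 scale (adjusted p = 0.26). Both proline dehydrogenase genes, unlike *ASN1*, had every *gis5* array above every WT array, as did 9.13% of all probe sets.

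**Figure D5:**
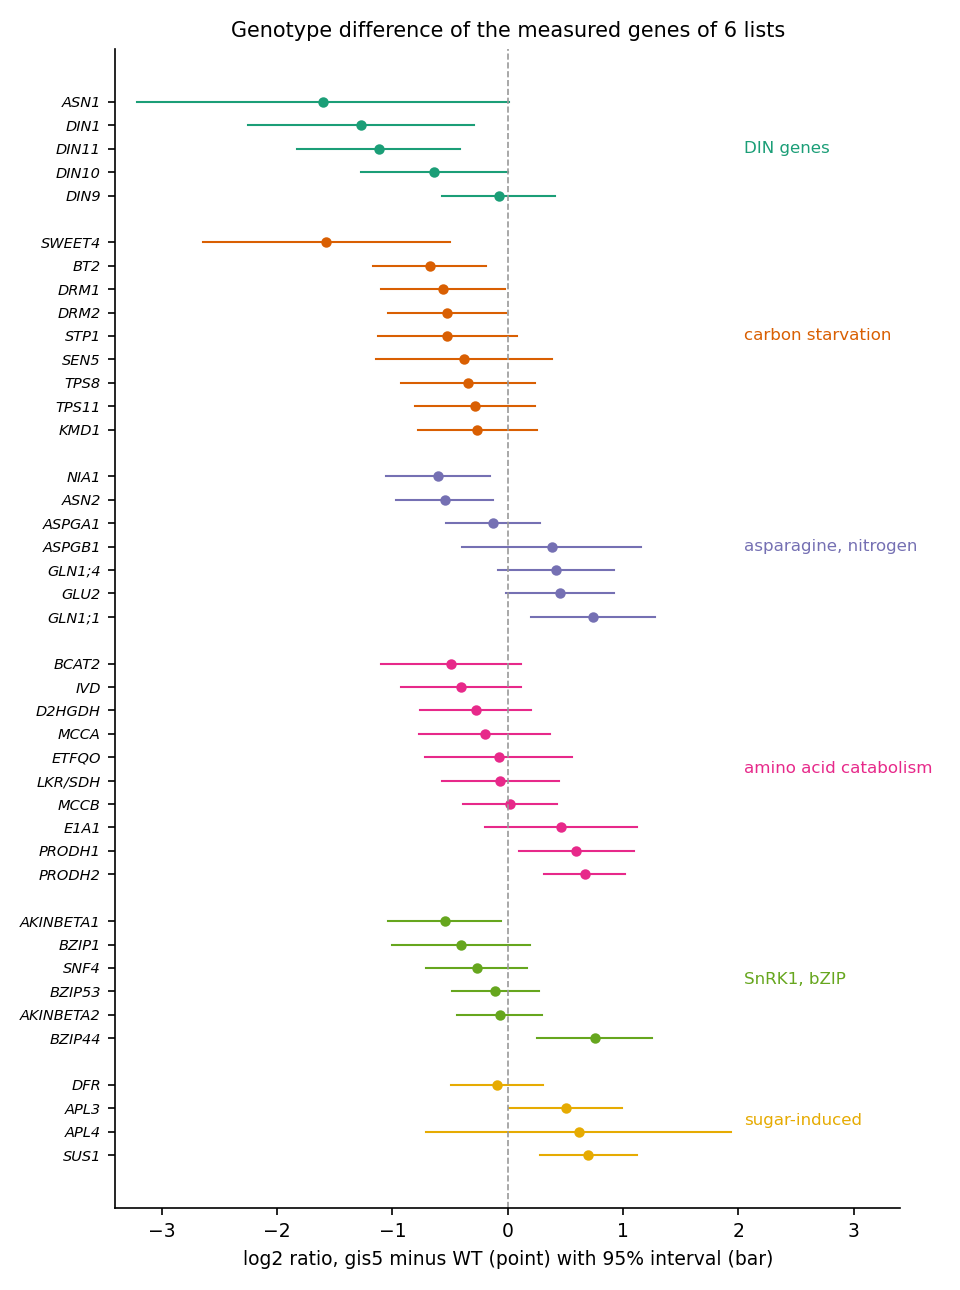
log2 ratio of *gis5* to WT with its 95% interval from limma (horizontal) for each measured gene of 6 lists, coloured by list. The *DIN* and carbon starvation genes all lie left of 0, 6 of their 14 intervals exclude 0, and the other lists hold genes on both sides.

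Of 17 regulators, 6 were measured, and 5 had a negative log2 ratio (median -0.19), as did 46.4% of all probe sets. At an unadjusted p under 0.05 in limma, 1 was lower (3.06% of all probe sets) and 1 higher (5.99% of all probe sets). *AKINBETA1* (AT5G21170), a beta subunit of SnRK1, read 1315, 1533 and 1100 in *gis5*, against 1921, 1594 and 2280 in WT. Its log2 ratio was -0.55 (SE 0.20, adjusted p = 0.50), with the order of *gis5* arrays seen in the members. Every *gis5* array of *AKINBETA1* was below every WT array, as for 6.79% of all probe sets. *BZIP1* (AT5G49450), an S1-group factor that binds the *ASN1* promoter, read 783, 1342 and 830 in *gis5* and 1381, 1057 and 1406 in WT, at -0.40 (adjusted p = 0.68). *BZIP44* (AT1G75390), another S1-group gene, had a positive log2 ratio of 0.75 (SE 0.21, adjusted p = 0.38). Its lowest *gis5* array lay above the highest WT array, as for 9.13% of all probe sets. *SNF4*, a further SnRK1 subunit gene, had -0.27. The genes of the kinase subunits *KIN10* and *KIN11* were not analysed here.

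Genes that sugar induces were measured for 4 of 11, with 3 positive log2 ratios (46.4% of all probe sets had negative ones) and a median of 0.56. The sucrose synthase gene *SUS1* (AT5G20830) read 603, 456 and 504 in *gis5*, against 275, 320 and 349 in WT, or 0.70 on the log2 scale (adjusted p = 0.32), and *APL3* (AT4G39210), for a large subunit of ADP-glucose pyrophosphorylase, had 0.50 (adjusted p = 0.54). Both genes separated the genotypes completely, with *gis5* higher, as seen for 9.13% of all probe sets. *APL4* had 0.61 from dim signals and *DFR* -0.10, with overlapping genotypes.

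Relatives of *DIN10* and *DIN1* did not share their pattern throughout. *SIP2* (AT3G57520), which encodes an alpha-galactosidase of raffinose and belongs to the same family as *DIN10*, read 1737, 2148 and 1877 in *gis5*, against 947, 1226 and 1274 in WT. The log2 ratio of *SIP2*, 0.74 (SE 0.18, adjusted p = 0.31), was opposite in sign to that of *DIN10*. Its genotypes did not overlap, with *gis5* higher, as for 9.13% of all probe sets. With a trended and robust variance *SIP2* passed (adjusted p = 0.0300). *AGAL3* had -0.20, and the other 8 genes of raffinose and galactoside metabolism were not analysed here. Of 11 further rhodanese genes, 7 were measured, with log2 ratios between -0.35 and 0.23, smaller in size than that of *DIN1*. Of these, 6 were negative, as were 46.4% of all probe sets. None had an unadjusted p under 0.05 in limma, where 3.06% of all probe sets were lower and 5.99% higher. In *STR4*, *STR9* and *STR14* every *gis5* array was below every WT array, as for 6.79% of all probe sets. *STR4* and *STR9* also had the *gis5* order of the members (15.6% of all probe sets). *STR14* had -0.35, *STR4* (*TROL*, a thylakoid protein) -0.34, *STR10* -0.28 and *STR9* -0.27. Genes of leaf senescence other than *DIN1* were measured for 4 of 13, and all 4 had positive log2 ratios, where 46.4% of all probe sets had negative ones. These were *SAG101* 0.54, *WRKY53* 0.52, *WRKY6* 0.40 and *SWEET15* (*SAG29*) 0.19. Of these, 1 was higher at an unadjusted p under 0.05 in limma (5.99% of all probe sets), and none passed an adjusted p of 0.05.

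Among the 6521 other brighter probe sets with a single gene name, 1.35% had an r of at least 0.9 with *ASN1* over the 6 arrays, and the median r was 0.00. The gene most like *ASN1* was *ACR9* (AT2G39570), an ACT-domain gene, with an r of 0.992, or 0.985 on deviations from the genotype means. *ACR9* read 3512, 4259 and 2182 in *gis5* and 4784, 4199 and 4833 in WT. Next came AT1G69160 (0.988), *PYE* (0.985), AT2G20670 (0.984), AT1G66900 (0.984), AT3G16850 (0.983), AT2G41710 (0.978) and AT5G56590 (0.973), all but *ACR9* named by the annotation. Their log2 ratios lay between -0.66 and -0.25. For *DIN1* the highest were AT5G25590 (0.991), *UGE3* (0.989), *GRF11* (0.986) and *CRK22* (0.985). For *DIN10* they were *UGE3* (0.998), AT4G30310 (0.989), AT5G25590 (0.987) and AT3G16850 (0.984). *UGE3* (AT1G63180), a UDP-glucose epimerase gene, read 149, 232 and 117 in *gis5* and 246, 219 and 253 in WT. All these coefficients come from the same 6 arrays, chosen as the highest of many, and are descriptions.

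General measures of the arrays were close but not equal. Median signals were 185 to 191 on *gis5* arrays and 174 to 182 on WT arrays, so that every *gis5* median was above every WT median. With arrays centred on their medians, the log2 ratios of *ASN1*, *DIN1* and *DIN10* were -1.67, -1.34 and -0.71. Correlations between arrays lay between 0.958 and 0.974 on the log2 scale. On the actin controls, the 3′ probe set gave, as a measure of how intact the RNA was, more signal than the 5′ probe set, with quotients of 4.39 to 4.99 in *gis5* and of 3.30 to 6.42 in WT. On the GAPDH controls the same quotient was 0.90 to 1.18 in *gis5* and 0.79 to 1.17 in WT. The 3 measured leaf markers summed to 59391 to 62681 in *gis5* and 69835 to 79364 in WT. All 3 were lower on each *gis5* array than on any WT array, as were 6.79% of all probe sets. The 6 measured root markers summed to 23238 to 26446 in *gis5* and 18390 to 25366 in WT. All 6 had a positive log2 ratio, where 46.4% of all probe sets had a negative one. The leaf sums were 62681, 62172 and 59391 on *gis5* arrays 1, 2 and 3. The 7 measured seed markers summed to 338, 1708 and 1104 on *gis5* arrays 1, 2 and 3 and to 313 to 380 on WT arrays, highest on *gis5* replicate 2, where *ASN1*, *DIN1* and *DIN10* were also highest among the mutants, next on replicate 3, where these were lowest, and at the WT level on replicate 1. The 2 measured flower markers summed to 115 to 351 in *gis5* and 107 to 163 in WT, with *SPL* near the lowest signals. The part of tissue makeup in the lower signals of *ASN1*, *DIN1* and *DIN10*, and in their spread between *gis5* arrays, was not tested. The reference genes *TIP41*, *SAND* and *GAPC2* had log2 ratios of 0.13, 0.09 and -0.20.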

How the data were processed

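The authors deposited 1 table with the linear signal intensity of 22810 probe sets on 6 ATH1 arrays, made with MAS5 per the labels (version not given in the sources used here) and scaled to a mean of about 500 on each array. RMA values of the study's supplement and its columns of fold changes and p-values were not used. The 64 control probe sets were removed, 16 was added to every deposited signal, log2 was taken without further scaling, and genotype was fitted in limma 3.58.1 (R 4.3.3), with Benjamini-Hochberg adjustment over all probe sets. The fit was tested on simulated data. Ratios on this scale understate the change of dim probe sets, and the number of arrays limits the precision.

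Gene names came from the platform annotation, updated by the TAIR10.1 RefSeq table (13436 probe sets with a single gene), then from the first 1996 rows of the supplementary table (851 more). The 503 with several genes were not named, and the brightest probe set stood for its gene. The members and lists were chosen with earlier results of these data known. Named genes are the members, all measured *DIN* genes, about 4 of each further list by smallest p, and the brighter probe sets (mean signal above the median) most correlated with a member. The rest of the carbon starvation list and the asparaginase genes were added after their values were seen. Correlations were computed with scipy 1.17.1. Same-numbered replicates did not deviate together (correlations -0.06, 0.00 and -0.04). Alternatives were pseudocounts of 1 and 64, quantile normalization, centred arrays, a replicate block, brighter probe sets alone, a trended and robust variance, array weights and leaving out each array.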

Additional observations from a re-analysis of the deposited data

How the results depend on the processing

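The log2 ratios of *ASN1*, *DIN1* and *DIN10* stayed negative and short of an adjusted p of 0.05 in all 14 alternatives run for each. That of *ASN1* was -1.75 with a pseudocount of 1 and -1.30 with one of 64. Without 1 array the ratios of *ASN1*, *DIN1* and *DIN10* ranged from -2.22 to -0.82, from -1.73 to -0.87 and from -0.91 to -0.41, with adjusted p-values in limma between 0.25 and 0.83. With the brighter probe sets tested alone, adjusted p was 0.17, 0.0849 and 0.21. With the replicate number as a block it was 0.67, 0.62 and 0.68, and no probe set passed (0, against 1 without the block). The number of probe sets past an adjusted p of 0.05 was otherwise 0 with a pseudocount of 1, 43 with one of 64, 109 with the brighter probe sets alone, 145 with a trended and robust variance, 7 with array weights, and 0 to 0 without any 1 array; at the thresholds of the methods, 123 were lower in *gis5*, against 257 with a pseudocount of 1, 14 with one of 64, 18 with brighter probe sets alone and 277 without WT replicate 2. The correlations between the members stayed between 0.957 and 0.993 under the pseudocounts and centring tried. Of 702 alternative fits of 51 other list genes, 701 left the call as it was and *SIP2* passed in 1. The counts in the lists are limited by names: of the 5 *DIN* genes and 9 other carbon starvation genes measured, 12 were named through a table sorted by the difference itself.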

Other observations

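Of the other named, brighter probe sets with the largest spread between the *gis5* arrays, some had the order of *ASN1* and some another, and those given here were chosen after their values were seen. The plastid genes *psaC* (240, 269 and 57.6 in *gis5*, 86.7, 294 and 236 in WT) and *psbB* (796, 894 and 270 in *gis5*, 130, 980 and 535 in WT), at places 3 and 8 of 6524 by log2 SD in *gis5*, had the same order of *gis5* arrays as *ASN1* and varied widely in WT too. AT3G02480, at place 2 (log2 SD 1.32), read 229, 866 and 1418 in *gis5* and 274, 315 and 309 in WT. The ferritin gene *FER1* read 3330, 3929 and 11683 in *gis5* and 3018, 3521 and 3423 in WT, so that *gis5* replicate 3, the lowest array for *ASN1*, was the highest for *FER1*. The oil body gene *OLEO2* (99.1, 315 and 337 in *gis5*, 150, 144 and 160 in WT) and *ICL*, for isocitrate lyase of the glyoxylate cycle (401, 1129 and 987 in *gis5*, 367, 472 and 552 in WT), were lowest on *gis5* replicate 1 among the mutant arrays. In AT3G02480, *FER1*, *OLEO2* and *ICL* the WT arrays lay within a narrower range than the *gis5* arrays. Because these genes were picked for a large spread between *gis5* arrays, a narrower WT range follows in part from that choice.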
